A study of Mus musculus with 6 samples.

Results

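Hox genes are the homeobox transcription factor genes of the HoxA, HoxB, HoxC and HoxD clusters, and their expression was read in dorsal mouse skin. Members were all rows of the deposited gene count table with a protein-coding symbol made of Hoxa, Hoxb, Hoxc or Hoxd and a number, which gave 39 genes of 55487 rows. The HoxA cluster held 11 members, HoxB 10, HoxC 9 and HoxD 9. Every sample was whole dorsal skin taken on day 2 from mice given diphencyprone (DPCP), a contact allergen that provokes an inflammatory skin reaction. The skin of 3 libraries came from DPCP with clodrosome, which is liposomes filled with clodronate, a drug that kills phagocytes that swallow the liposomes. The skin of the other 3 libraries came from DPCP with encapsome, the empty liposomes used as the control. Skin without DPCP was not among the samples, and the labels give no strain, sex or age.

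In mammals, the order of Hox genes along each cluster matches the order in which they are used along the body, a property called colinearity. Genes with low numbers act toward the head, and genes with high numbers act toward the tail and the tips of the limbs. Adult skin fibroblasts keep a Hox pattern that reflects the body site they came from. Hoxc13 is also known for a separate task in the hair follicle, where it drives keratin genes of the hair shaft. Genes with the same number in different clusters are paralogs, copies of 1 ancestral gene.

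Within each group the libraries are lettered A, B and C, in the order of their count columns. Total counts were 116965654 in clodrosome A, 30605600 to 35566351 in the other clodrosome libraries, and 26649396 to 32066256 in encapsome skin. Levels are given as CPM, counts scaled to a common library size, with TMM normalization, and levels of different genes are compared only as CPM per kilobase of exon. The macrophage list, a check on the treatment, had 6 of 6 markers lower in clodrosome skin, with a summed level of 490 to 1177 CPM there and 2654 to 3180 CPM in encapsome skin. Since whole skin was sequenced, fewer cells of a type and less RNA per cell cannot be told apart.

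Dorsal skin transcribed the middle of the clusters most. Per kilobase, the highest gene of each cluster was Hoxa7, Hoxb7, Hoxc8 or Hoxd8. Hoxb7 averaged 10.6 CPM per kilobase in clodrosome skin and 6.12 in encapsome skin. Hoxd8 averaged 6.90 CPM per kilobase in clodrosome skin and 5.94 in encapsome skin. Hoxc8 averaged 5.31 CPM per kilobase in clodrosome skin and 5.63 in encapsome skin, and Hoxa7 averaged 5.05 in clodrosome skin and 4.01 in encapsome skin.

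The order at the top was not the same in every library. Hoxb7 was the highest Hox gene in all 3 clodrosome libraries, at 9.80, 12.1 and 9.80 CPM per kilobase, with Hoxd8 next at 6.82, 6.92 and 6.95. In encapsome skin Hoxb7 lay at 6.66, 5.85 and 5.84 CPM per kilobase, Hoxd8 at 4.80, 6.70 and 6.32, and Hoxc8 at 5.84, 5.41 and 5.64. Their ranges overlapped, so the order of these 3 genes in encapsome skin was within the spread between libraries. Hoxa7 shares 20.4% of its exonic bases with an antisense row, and reads in such shared stretches were left out of the counts. When levels were computed over unshared bases, Hoxa7 ranked 3 and Hoxc8 ranked 4, against 4 and 3 over the full length.

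Below these, Hoxa5 and Hoxc6 each averaged 3.90 CPM per kilobase over the 6 libraries, Hoxb9 3.54, Hoxd9 2.76, Hoxb6 2.51, Hoxc13 2.10, Hoxb8 2.01 and Hoxd10 1.92. Hoxc9 (1.53), Hoxa6 (1.36), Hoxb4 (1.25), Hoxc5 (1.17), Hoxc10 (1.14) and Hoxa9 (1.07) formed a lower group in CPM per kilobase. The remaining members that entered the test lay under 1 CPM per kilobase, and these were Hoxc4, Hoxa10, Hoxa4, Hoxa2, Hoxb3, Hoxb5, Hoxb2, Hoxa3 and Hoxd4. Hoxb1, Hoxb2, Hoxb3, Hoxa2, Hoxa3 and Hoxd3, which pattern the hindbrain and neck in embryos, were thus among the lowest, as was Hoxd1. So were Hoxd4 (0.165) and Hoxb5 (0.335) of the middle positions. Hoxd3 and Hoxb3 share 62.8% and 52.9% of their exonic bases with other rows, which lowers their counts by an amount that was not measured.

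At the posterior ends of HoxA, HoxB and HoxD almost no counts were found, with a sharp edge after position 10, or after position 9 in HoxB, which has no gene at position 10. Hoxd10 had 40 to 473 counts in every library, and its neighbour Hoxd11 had 1 count in all 6 libraries together. Hoxd12 and Hoxd13, which pattern digits and the genital region, had 0 counts in every library. Hoxa10 had 65 to 392 counts per library, and its neighbour Hoxa11 had 2 counts in all. Hoxa13 also had 2 counts in all, and Hoxb13, the only member of its cluster past position 9, had 2. HoxC broke this pattern. Hoxc11 had 19 counts in all and Hoxc12 had 8, and Hoxc13, at the very end of the cluster, had 92 to 800 counts in each library.

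A level cannot be told from 0 at or under 6 counts, which is 3 sequenced fragments with both ends counted, and this limit covers counting error only. It equals 0.0502 CPM in clodrosome A and 0.166 to 0.228 CPM in the other 5 libraries. Hoxa11, Hoxa13, Hoxb13, Hoxc12, Hoxd1, Hoxd11, Hoxd12 and Hoxd13 were at or under it in all 6 libraries. Hoxb1, Hoxc11 and Hoxd3 passed it in at least 1 library but not the filter on low counts, so these 11 members were not tested.

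**Figure D1:**
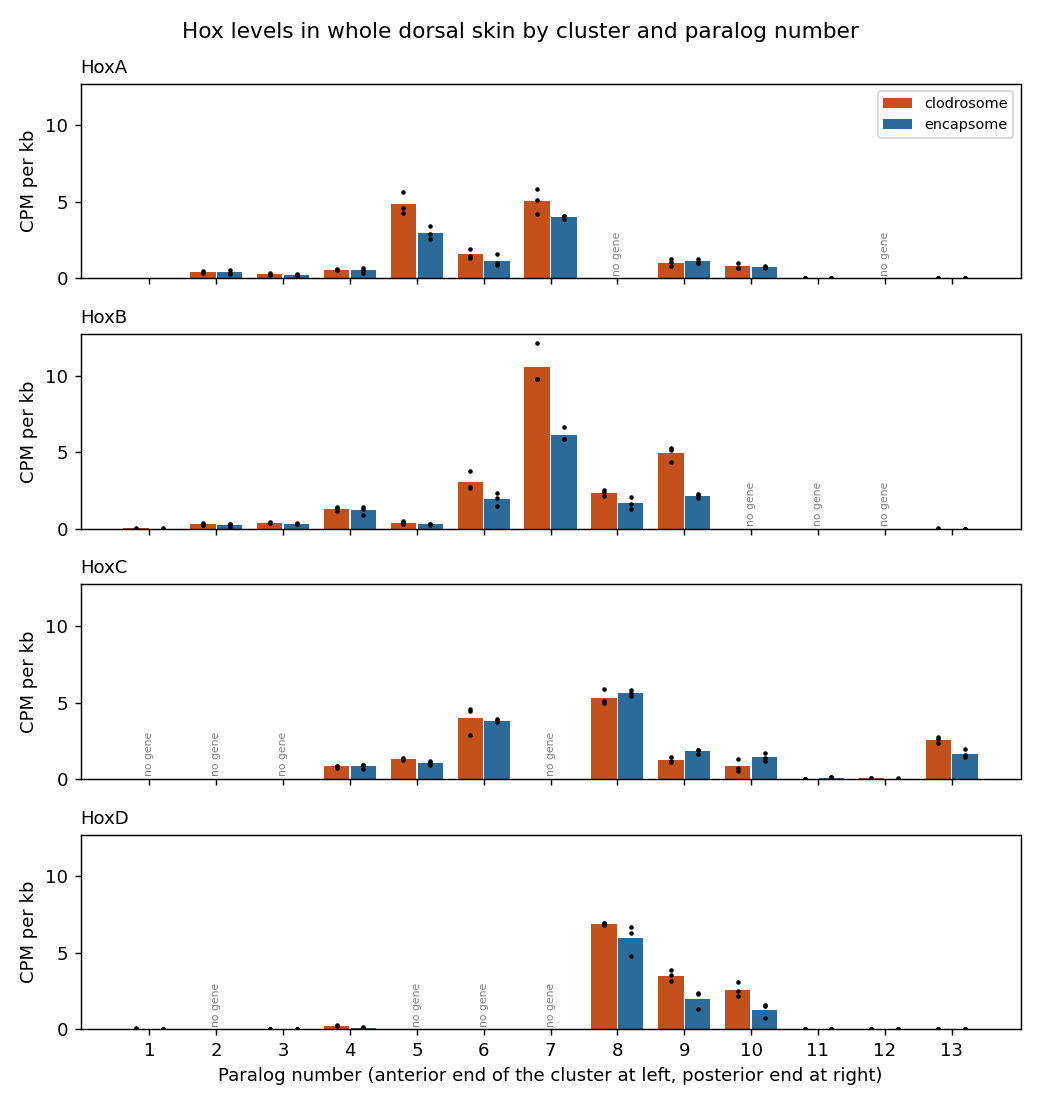
Level of Hox genes in CPM per kilobase of exon (vertical axis) by paralog number (horizontal axis), 1 panel per cluster. Bars are means of 3 libraries, clodrosome left and encapsome right of each position, dots are libraries, and a position without dots or a note is not shown. Levels peak at positions 7 and 8, Hoxb7 is highest at 10.6 in clodrosome skin and 6.12 in encapsome skin, and past position 10 only Hoxc13 stands clear of 0.

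The second question was whether Hox levels differed between clodrosome and encapsome skin. Of the 39 members, 28 passed the filter and were tested, and 27 of these were over its limit in every library. By edgeR's quasi-likelihood test with Benjamini-Hochberg adjustment over 17988 genes, 7 Hox genes were higher in clodrosome skin at an adjusted p under 0.05, and 0 were lower. Of the 7, 6 were over the filter's limit in every library. The other, Hoxd4, passed the filter only through its clodrosome libraries, and the share, median and signs below include it. Among the 27 members over the limit in every library, 6 were called. Over all genes tested, 22.4% were called in either direction, 9.41% higher and 13.0% lower. The share of tested Hox genes called was 25%, close to the 22.4% of all genes in either direction, and all of those calls were upward. The median log2 fold change of the 28 tested Hox genes was 0.32, against 0.01 for all genes tested. Of the 28 fold changes, 22 were positive and 6 negative.

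Every clodrosome library lay above every encapsome library for 12 of the 28 tested Hox genes, Hoxd4 among them, against 19.5% of all genes tested. The reverse, with the clodrosome libraries all lower, held for 1 Hox gene, Hoxc9, against 20.7% of all genes tested. At an unadjusted p under 0.05, 11 of the 28 tested Hox genes and 6433 of all 17988 genes tested passed in edgeR. By DESeq2, 7 Hox genes were called, among 22.8% of all genes. The labels do not say that the libraries came from separate animals, so the p-values reflect no more than library-to-library spread, which may be technical.

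By cluster, 3 of 4 tested HoxD genes were called higher, 2 of 8 HoxB genes, 1 of 9 HoxA genes and 1 of 7 HoxC genes. The HoxD count, median and signs given here include Hoxd4, which could be tested only because it was high in clodrosome skin. Its call and its sign are thus no support for a HoxD difference. The other tested HoxD genes, Hoxd8, Hoxd9 and Hoxd10, had log2 fold changes of 0.22, 0.81 and 1.02, and of these Hoxd9 and Hoxd10 were called. The median log2 fold change was 0.91 in HoxD, 0.52 in HoxB, 0.12 in HoxA and -0.02 in HoxC. All 4 tested HoxD genes and all 8 tested HoxB genes had positive fold changes, while 4 of the 7 tested HoxC genes had negative ones. By position, 0 of 5 tested genes at positions 1 to 3 were called, 3 of 15 (20%) at positions 4 to 8, and 4 of 8 (50%) at positions 9 to 13. Hoxd4 is 1 of the 3 at positions 4 to 8. Over all genes tested, 22.4% were called in either direction and 9.41% higher. With so few genes, these counts do not establish an order along the clusters. No test compared clusters or positions with each other.

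**Figure D2:**
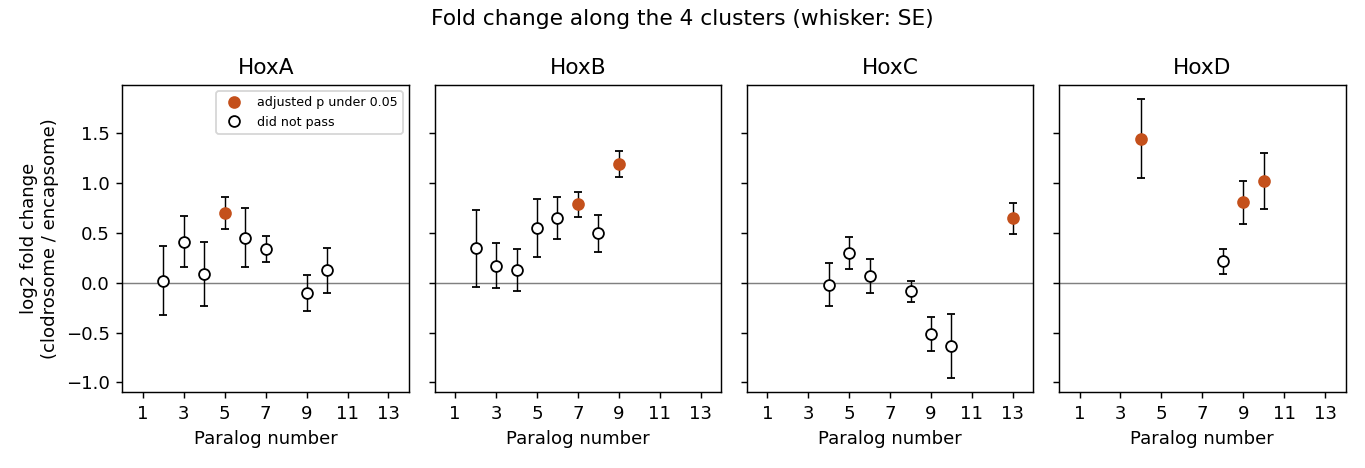
Fold change of tested Hox genes (log2 of clodrosome over encapsome, vertical axis; whiskers are the SE) by paralog number, 1 panel per cluster. Filled points passed an adjusted p under 0.05 in edgeR and open points did not. All 7 filled points are above 0, and the lowest open points are Hoxc10 at -0.64 and Hoxc9 at -0.52.

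HoxB, on chromosome 11 at 96194316 to 96368256 (GRCm38), held the member with the smallest p. Hoxb9 (chr11:96271457-96276595) belongs to the paralog group that marks the chest region of the trunk. It had 13.6, 13.2 and 11.2 CPM in clodrosome skin, against 5.84, 5.13 and 5.71 CPM in encapsome skin. The lowest clodrosome library was well over the highest encapsome library. Its mean was 12.7 ± 1.29 CPM in clodrosome skin and 5.56 ± 0.377 CPM in encapsome skin (SD, n = 3 each). The log2 fold change was 1.19 ± 0.13 (SE), a fold of 2.29, with an adjusted p of 0.000309 in edgeR.

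Hoxb7 (chr11:96286623-96290162), a gene of the trunk, was the most abundant Hox message per kilobase. It had 15.1, 18.7 and 15.1 CPM in clodrosome skin, against 10.3, 9.04 and 9.01 CPM in encapsome skin. All clodrosome libraries were above all encapsome libraries, and clodrosome B was the highest. On the log2 scale the fold change was 0.79 ± 0.12 (SE), with an adjusted p of 0.00225 in edgeR. Hoxb7 and Hoxb9 were the only Hox genes called under the original settings and all 10 alternatives.

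The other HoxB genes from position 5 on had positive fold changes that did not pass the test. Hoxb6 had 5.26, 7.46 and 5.39 CPM in clodrosome skin, against 4.55, 3.94 and 2.93 CPM in encapsome skin. The groups did not overlap, and its log2 fold change was 0.65 (edgeR adjusted p = 0.0512), just outside the threshold. Hoxb8 had 5.70, 6.64 and 6.30 CPM in clodrosome skin, against 5.45, 3.41 and 4.30 CPM in encapsome skin. Encapsome A came close to the lowest clodrosome library, and the log2 fold change was 0.50 (edgeR adjusted p = 0.0836). Hoxb5 had a log2 fold change of 0.55 with overlapping groups. Hoxb2, Hoxb3 and Hoxb4, toward the head end, had log2 fold changes of 0.35, 0.17 and 0.13, with overlapping groups and SEs of 0.38, 0.22 and 0.21. Hoxb3 shares 52.9% of its exonic bases with an antisense row, which lowers its count by an amount that was not measured.

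HoxD, on chromosome 2 at 74668310 to 74765142, was transcribed at positions 8 to 10, with little at position 4. Hoxd9 (chr2:74697727-74700208) and Hoxd10 (chr2:74691924-74695105) are known from the lower trunk and the limbs. Hoxd9 had 6.68, 7.62 and 8.23 CPM in clodrosome skin, against 2.87, 4.94 and 5.06 CPM in encapsome skin. Encapsome A was the lowest library, and no encapsome library reached the clodrosome range. Hoxd9 had a log2 fold change of 0.81 ± 0.21 (SE), with an adjusted p of 0.0248 in edgeR.

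Hoxd10 had 3.95, 4.53 and 5.58 CPM in clodrosome skin, against 1.29, 2.88 and 2.74 CPM in encapsome skin. Again the ranges were apart, with encapsome A the lowest. Hoxd10 had a log2 fold change of 1.02 ± 0.29 (SE), with an adjusted p of 0.0312 in edgeR. Both calls were lost without clodrosome C, and that of Hoxd10 also without encapsome C, and the adjusted p over the alternatives reached 0.0830 for Hoxd9 and 0.105 for Hoxd10.

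Hoxd8, the neighbour of Hoxd9 and the second most abundant Hox gene per kilobase, had 18.7, 19.0 and 19.1 CPM in clodrosome skin, against 13.2, 18.4 and 17.3 CPM in encapsome skin. There was no overlap, but encapsome B came close to the clodrosome libraries and encapsome A was the low one. Hoxd8 had a log2 fold change of 0.22 ± 0.13 (SE), and its adjusted p was 0.261 in edgeR.

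Hoxd4 (chr2:74711929-74729160), a gene of the neck region, was the lowest tested member per kilobase. It had 0.895, 0.690 and 0.552 CPM in clodrosome skin, against 0.290, 0.344 and 0.152 CPM in encapsome skin, where the counts were 9, 11 and 4. There was no overlap between the groups. Hoxd4 passed the filter only through its clodrosome libraries, so it could be tested only because it was high there. Its log2 fold change was 1.45 ± 0.40 (SE; adjusted p = 0.0298 in edgeR), and the call was lost in 6 of 10 alternatives. It also shares 52.3% of its exonic bases with other rows, among them Hoxd3, whose own counts were too low to test.

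HoxA, on chromosome 6, had 1 called member. Hoxa5 (chr6:52201754-52204587) acts in the upper trunk, the lung and fat tissue. It had 8.63, 10.6 and 7.98 CPM in clodrosome skin, against 6.45, 5.38 and 4.83 CPM in encapsome skin. Clodrosome B was the highest, and all 3 clodrosome values exceeded the encapsome ones. For Hoxa5 the log2 fold change was 0.70 ± 0.16 (SE), with an adjusted p of 0.0133 in edgeR. Without encapsome B or without encapsome C the call was lost, with an adjusted p of up to 0.0559 over the alternatives.

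Hoxa7, the most abundant HoxA gene per kilobase, had 16.7, 14.8 and 12.1 CPM in clodrosome skin, against 11.8, 11.1 and 11.7 CPM in encapsome skin. The groups did not overlap, but clodrosome C stood next to the encapsome libraries. For Hoxa7 the log2 fold change was 0.34 ± 0.13 (SE), with an adjusted p of 0.0972 in edgeR. Hoxa3 and Hoxa6 had log2 fold changes of 0.41 and 0.45, with SEs of 0.25 and 0.30 and overlapping groups. Hoxa2, Hoxa4, Hoxa9 and Hoxa10 had log2 fold changes between -0.10 and 0.12, and their groups overlapped.

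HoxC, on chromosome 15 at 102921103 to 103036852, held members in both directions. Hoxc13 (chr15:102921103-102928814), the hair and nail gene, had 6.69, 5.85 and 6.38 CPM in clodrosome skin, against 3.84, 4.75 and 3.50 CPM in encapsome skin. Each clodrosome value exceeded each encapsome value. For Hoxc13 the log2 fold change was 0.65 ± 0.16 (SE), with an adjusted p of 0.0180 in edgeR. The call was lost without clodrosome A, without clodrosome C, without encapsome A and without encapsome C, with an adjusted p of up to 0.0695.

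Hoxc9 (chr15:102976439-102985099) had 3.51, 2.83 and 2.76 CPM in clodrosome skin, against 4.64, 3.97 and 4.53 CPM in encapsome skin. All 3 clodrosome libraries lay below all 3 encapsome libraries, the reverse of Hoxb9 and Hoxd9. The log2 fold change was -0.52 ± 0.17 (SE), and the adjusted p of 0.0581 in edgeR missed the threshold. Over all settings it lay between 0.0502 and 0.175.

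Hoxc10 had 2.52, 1.41 and 1.02 CPM in clodrosome skin, against 2.29, 2.56 and 3.19 CPM in encapsome skin. The groups overlapped through clodrosome A, and the log2 fold change was -0.64 ± 0.32 (SE; adjusted p = 0.190 in edgeR). Without clodrosome A it was -1.14 and passed the test, so that library decided the call. Hoxc8, the most abundant HoxC gene per kilobase, had 14.1, 14.5 and 16.6 CPM in clodrosome skin, against 16.5, 15.3 and 16.0 CPM in encapsome skin. These groups overlapped, and the log2 fold change was -0.09 ± 0.10 (SE). Hoxc4, Hoxc5 and Hoxc6 had log2 fold changes of -0.02, 0.30 and 0.07. Hoxc6 was uneven within clodrosome skin, at 11.1, 6.90 and 10.7 CPM, with clodrosome B below all 3 encapsome libraries.

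**Figure D3:**
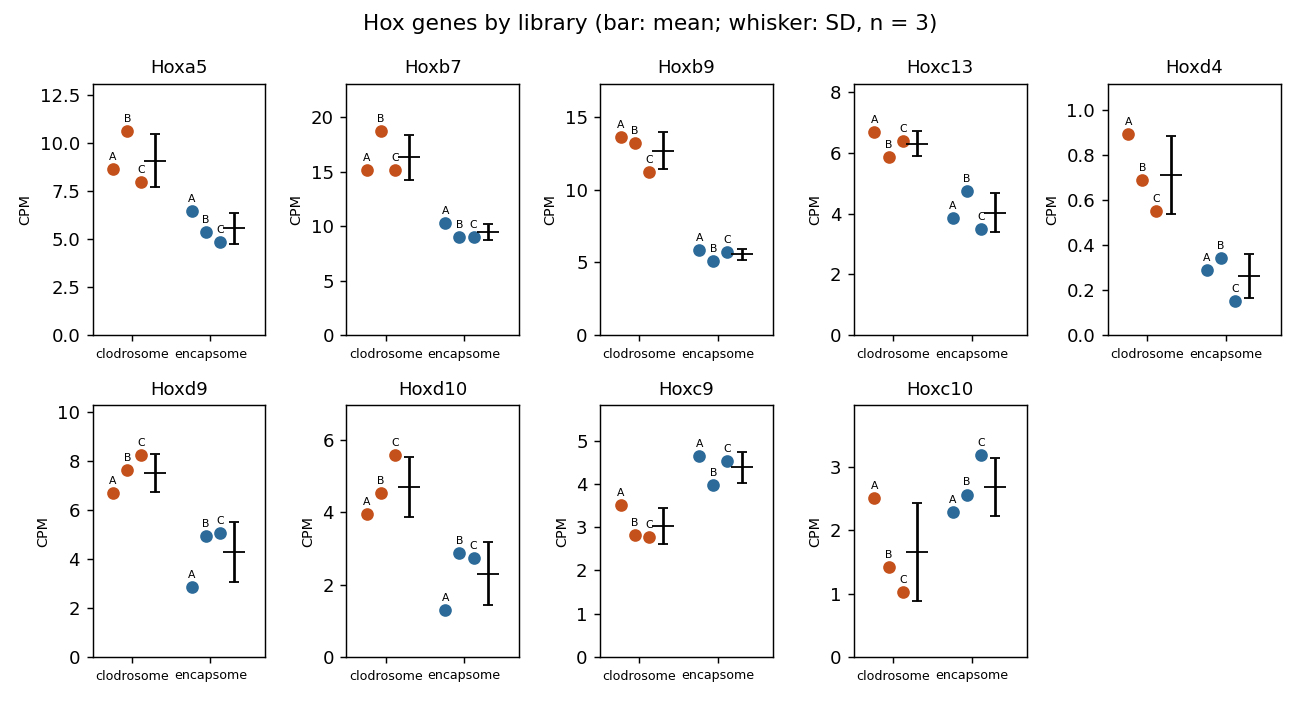
CPM by library for the 7 Hox genes called higher in clodrosome skin and for Hoxc9 and Hoxc10, with clodrosome left and encapsome right in each panel. Dots are libraries A, B and C, and the bar with whiskers is the mean and SD (n = 3). In the 7 called genes all clodrosome dots are above all encapsome dots, and for Hoxc9 all are below.

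Paralogs of group 9 and group 10 thus had fold changes of opposite sign, while Hoxa9 and Hoxa10 were at -0.10 and 0.12 on the log2 scale. Their ratio within a library needs no scaling between libraries. The 3 ratios were chosen after the values had been seen, for genes of opposite sign, so they are a description with no test. Hoxb9 counts per Hoxc9 count were 3.87, 4.69 and 4.06 in clodrosome skin, against 1.26, 1.29 and 1.26 in encapsome skin. Hoxd9 per Hoxc9 was 1.90, 2.70 and 2.98 in clodrosome skin, against 0.618, 1.24 and 1.12 in encapsome skin. Hoxd10 per Hoxc10 was 1.57, 3.21 and 5.46 in clodrosome skin, against 0.563, 1.12 and 0.857 in encapsome skin. None of the 3 ratios overlapped between groups. For Hoxb9 and Hoxd9 over Hoxc9 this follows from the genes themselves, whose groups did not overlap.

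Added over whole clusters, HoxB and HoxD messages differed most. The HoxB sum was 46.9, 54.0 and 44.1 CPM in clodrosome skin, against 32.9, 27.9 and 26.8 CPM in encapsome skin. The HoxD sum was 30.4, 31.9 and 33.5 CPM in clodrosome skin, against 17.6, 26.6 and 25.3 CPM in encapsome skin. The HoxA sum was 43.3, 39.6 and 33.8 CPM in clodrosome skin, against 32.0, 31.9 and 32.1 CPM in encapsome skin. None of these 3 sums overlapped, and the HoxA sum of clodrosome C was the nearest to the other group. The HoxC sum was 44.0, 37.4 and 43.7 CPM in clodrosome skin, against 41.4, 41.6 and 42.3 CPM in encapsome skin, and here the groups overlapped.

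The promoters of the called genes are shown beside 1 uncalled neighbour, so that neighbours in 1 cluster can be compared. Each window, credited to RefSeq on GRCm38.p6, runs from 250 bases before to 50 bases after a RefSeq start. That start can differ from the start of the counted row. For Hoxd4 the window (chr2:74721728-74722027) lies inside the counted row (chr2:74711929-74729160). Of the 39 Hox genes, 22 had a window. Hoxb7, Hoxb9 and Hoxc13 were not among them. The 4 motifs were searched on both strands, and capitals mark their matches. They were the TATA box as TATAAA, the CCAAT box as CCAAT, the composite site of Pbx and Hox proteins as TGATNNAT, and the homeodomain core as TAATTA.
Hoxd10 (chr2:74691641-74691940, plus strand): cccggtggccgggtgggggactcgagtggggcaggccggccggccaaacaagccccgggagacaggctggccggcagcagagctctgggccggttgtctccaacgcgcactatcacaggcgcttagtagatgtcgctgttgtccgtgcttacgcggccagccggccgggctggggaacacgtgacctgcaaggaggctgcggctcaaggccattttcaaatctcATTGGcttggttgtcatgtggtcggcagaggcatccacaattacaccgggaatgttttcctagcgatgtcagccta
Hoxd9 (chr2:74697513-74697812, plus strand): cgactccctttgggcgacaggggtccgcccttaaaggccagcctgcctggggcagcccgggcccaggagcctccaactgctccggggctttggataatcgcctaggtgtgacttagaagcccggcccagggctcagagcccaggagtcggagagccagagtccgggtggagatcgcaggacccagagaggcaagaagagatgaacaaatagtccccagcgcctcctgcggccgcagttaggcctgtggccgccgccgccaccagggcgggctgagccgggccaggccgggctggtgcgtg
Hoxd8 (chr2:74704365-74704664, plus strand): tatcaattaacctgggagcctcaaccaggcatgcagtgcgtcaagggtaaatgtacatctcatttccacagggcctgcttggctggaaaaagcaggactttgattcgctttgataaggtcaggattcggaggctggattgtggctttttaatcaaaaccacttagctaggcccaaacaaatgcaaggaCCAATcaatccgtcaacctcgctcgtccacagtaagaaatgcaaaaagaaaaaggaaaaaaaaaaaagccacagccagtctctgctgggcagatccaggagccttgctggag
Hoxd4 (chr2:74721728-74722027, plus strand): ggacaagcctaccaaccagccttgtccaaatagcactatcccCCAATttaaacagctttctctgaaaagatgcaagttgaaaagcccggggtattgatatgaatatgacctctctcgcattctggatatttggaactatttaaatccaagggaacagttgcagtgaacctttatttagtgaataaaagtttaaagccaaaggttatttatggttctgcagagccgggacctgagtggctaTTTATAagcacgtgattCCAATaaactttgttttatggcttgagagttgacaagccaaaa
Hoxa5 (chr6:52204538-52204837, minus strand): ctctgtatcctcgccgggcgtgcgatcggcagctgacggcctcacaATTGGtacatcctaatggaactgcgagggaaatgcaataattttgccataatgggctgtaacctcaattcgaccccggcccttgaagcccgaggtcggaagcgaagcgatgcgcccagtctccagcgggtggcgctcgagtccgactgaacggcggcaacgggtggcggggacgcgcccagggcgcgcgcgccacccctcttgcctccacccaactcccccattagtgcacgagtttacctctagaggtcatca

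The adjacent called genes Hoxd10 and Hoxd9 differed in these letters. Hoxd10 held 1 CCAAT match on the reverse strand, starting 26 bases before the RefSeq start, and Hoxd9 held 0 matches of the 4 motifs. The uncalled Hoxd8 held 1 CCAAT match, 62 bases before the start. Hoxd4 held 2 CCAAT matches and a TATA match, and Hoxa5 held 1 CCAAT match. Among 32851 windows of all genes, 37.4% held CCAAT, 13.6% TATAAA, 8.85% TGATNNAT and 5.29% TAATTA. Of the 24 windows of Hox genes, 15 held CCAAT, 4 held TATAAA, 4 held TGATNNAT and 2 held TAATTA. A match is a run of letters, not a shown binding site.

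The stretches between Hox genes were also read. Inside the 4 cluster spans lay 46 other rows, among them antisense and long noncoding RNAs and miRNA genes, and 12 of them were tested. Of these, 2 were higher and 0 lower (16.7% called, against 22.4% of all genes tested), with a median log2 fold change of 0.28. Gm53, a long noncoding RNA between Hoxb13 and Hoxb9, had 12.5, 13.6 and 11.2 CPM in clodrosome skin, against 7.93, 6.76 and 8.41 CPM in encapsome skin. Its groups did not overlap, like those of its neighbour Hoxb9. The log2 fold change was 0.69 ± 0.13 (SE; adjusted p = 0.00520 in edgeR). Gm14396, a noncoding RNA between Hoxd10 and Hoxd9, had 0.326, 0.559 and 0.470 CPM in clodrosome skin, against 0.0323, 0.0626 and 0.190 CPM in encapsome skin. All 3 encapsome values were at or under the 6 counts that separate a level from 0. Gm14396 could be tested only because it was high in clodrosome skin, and its call was lost in 4 of 10 alternatives. Hotair, a noncoding RNA of the HoxC cluster known from human skin fibroblasts of posterior and distal sites, had 0 counts in all 6 libraries.

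The clusters also carry the miR-196 genes, shown here because in mammals miR-196 is known to target Hox messages, Hoxb8 among them. Both mature forms, from RefSeq on GRCm38.p6, share the seed in capitals (bases 2 to 8).
mmu-miR-196a-5p: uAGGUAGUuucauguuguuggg
mmu-miR-196b-5p: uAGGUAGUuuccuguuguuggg

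Mature miRNAs are not captured by polyadenylated RNA libraries, so their levels were not measured. The row of Mir196a-1, the HoxB copy next to Gm53 (mature sequence at chr11:96265187-96265208, plus strand), had 1.08 ± 0.39 CPM in clodrosome skin and 0.901 ± 0.225 CPM in encapsome skin (SD, n = 3 each). The groups overlapped, and the log2 fold change was 0.29 ± 0.35 (SE). The rows of Mir196a-2 in HoxC and Mir196b in HoxA had 0 counts in every library. Mir196b shares 85 bases with Hoxa9 exons on the same strand, and reads in such stretches were left out. Its 0 is thus limited by the counting and does not show that the stretch is silent.

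Outside the cluster ends, the 3 nearest protein-coding genes on each side gave 24 neighbours, of which 20 were tested. Of these, 2 were higher and 2 lower, and the median log2 fold change was 0.07. The share called was 20%, near the 22.4% of all genes tested. Hnrnpa3, an RNA-binding protein gene near HoxD, and Cbx1, which codes for a heterochromatin protein near HoxB, were higher, with log2 fold changes of 0.44 and 0.29 (edgeR adjusted p = 0.0149 and 0.0142). Skap2, an adaptor protein gene of immune cells, and Hibadh, an enzyme gene of valine breakdown, both near HoxA, were lower, with log2 fold changes of -0.51 and -0.34 (edgeR adjusted p = 0.00360 and 0.0245). Of these 4 calls, that of Skap2 alone held in all 10 alternatives. Evx1 and Evx2, the homeobox genes next to the posterior ends of HoxA and HoxD, had 0 counts in every library.

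Hox proteins bind DNA together with Pbx, Meis and Pknox proteins, and all 9 of these cofactor genes were tested. Of them, 1 was higher and 2 were lower (33.3% called, against 22.4% of all genes tested), with a median log2 fold change of -0.08. Meis3 had 3.34, 2.73 and 3.04 CPM in clodrosome skin, against 6.45, 6.88 and 6.05 CPM in encapsome skin. Its groups were far apart, with a log2 fold change of -1.08 ± 0.15 (SE; adjusted p = 0.00117 in edgeR), called in all 10 alternatives. Pbx2 had a log2 fold change of -0.28 and Pknox2 of 0.57 (edgeR adjusted p = 0.0228 and 0.0395), and these calls were lost in 4 and 5 of the 10 alternatives.

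Polycomb proteins keep Hox genes silent and trithorax proteins keep them active. Of 26 Polycomb genes tested, 1 was higher and 0 lower (3.85% called, against 22.4% of all genes tested). It was Mtf2, a partner of the methylating complex PRC2, with a log2 fold change of 0.23 (edgeR adjusted p = 0.0446), lost in 8 of 10 alternatives. Of 10 trithorax and H3K27 demethylase genes, 0 were called by edgeR, and 1 had an unadjusted p under 0.05. The medians of the lists were -0.01 and 0.08.

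Retinoic acid switches on Hox genes in embryos. Of 13 genes for retinoic acid enzymes and receptors, Cdx factors and Gdf11, 8 were tested, 1 was higher and 3 were lower. That is 50% of those tested, against 22.4% of all genes tested. Aldh1a2, which makes retinoic acid, had 0.761, 0.591 and 0.746 CPM in clodrosome skin, against 6.61, 6.16 and 5.25 CPM in encapsome skin. Its log2 fold change was -3.07 ± 0.20 (SE; adjusted p = 5.99e-05 in edgeR). Aldh1a3, which also makes retinoic acid, went the other way, with 547, 664 and 580 CPM in clodrosome skin, against 460, 334 and 375 CPM in encapsome skin. Its log2 fold change was 0.62 ± 0.13 (SE; adjusted p = 0.00814 in edgeR). Cyp26b1, which breaks retinoic acid down, and the receptor gene Rara were lower, with log2 fold changes of -0.59 and -0.50 (edgeR adjusted p = 0.000980 and 0.0206). The call of Rara was lost in 4 of 10 alternatives, and those of the 3 enzymes in none. Cdx1, Cdx2 and Cdx4, which activate Hox genes in the embryo, had 0 counts in every library.

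Other transcription factor genes that mark position in skin and limbs were called more often as lower. Of 12 such genes 11 were tested, 1 was higher and 6 were lower, with a median log2 fold change of -0.49. The share called was 63.6%, against 22.4% of all genes tested. Tbx18, a T-box gene of the body wall mesenchyme, had 2.42, 2.10 and 2.13 CPM in clodrosome skin, against 5.32, 4.29 and 5.02 CPM in encapsome skin. Its log2 fold change was -1.12 ± 0.17 (SE; adjusted p = 0.00182 in edgeR). Zic1, Twist2, En1, Tbx15 and Shox2 were lower, with log2 fold changes of -0.92, -1.17, -0.95, -0.49 and -0.54. Tbx15 and En1 are known from dorsal dermis and Twist2 from dermal progenitors. Pitx1, the hindlimb identity gene, was higher. It averaged 4.39 ± 0.706 CPM in clodrosome skin and 1.56 ± 0.363 CPM in encapsome skin (SD, n = 3 each), and its groups did not overlap. Its log2 fold change was 1.48 ± 0.23 (SE; adjusted p = 0.00186 in edgeR). The calls of Tbx18, Zic1 and Pitx1 held in all 10 alternatives. Twist2 lost its call without encapsome B, Tbx15 in 3, En1 in 4 and Shox2 in 8 of the 10.

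Markers of the cell types that could carry Hox messages also differed between the groups. Their counts are to be read beside the 22.4% of all genes tested that were called in either direction. Of 10 fibroblast markers, 9 were lower and 0 higher, with a summed level of 2341 to 4425 CPM in clodrosome skin and 8258 to 9739 CPM in encapsome skin. Pdgfra, the receptor gene of skin fibroblasts, had 115, 37.5 and 85.4 CPM in clodrosome skin, against 248, 263 and 246 CPM in encapsome skin. The 7 called Hox genes were thus higher in the libraries in which fibroblast markers were lower. Of 7 dermal papilla markers 2 were lower, with a summed level of 149 to 215 CPM in clodrosome skin and 240 to 280 CPM in encapsome skin.

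Epithelial markers went in both directions. Of 6 basal keratinocyte markers 3 were higher, with a summed level of 23425 to 23858 CPM in clodrosome skin and 15998 to 19930 CPM in encapsome skin. Of 5 markers of the outer hair follicle 3 were higher, with a summed level of 449 to 791 CPM in clodrosome skin and 316 to 369 CPM in encapsome skin. Lhx2, a follicle stem cell factor, had a log2 fold change of 1.14 (edgeR adjusted p = 0.000186). Of 5 suprabasal keratinocyte markers 4 were lower. For Hoxc13, the closest list is that of the hair matrix and cortex, with 14 matched genes, of which 7 were at or under 6 counts in every library. Of its 4 tested genes 0 were called by edgeR, and 0 had an unadjusted p under 0.05. Its summed level was 11.7 to 11.9 CPM in clodrosome skin and 9.55 to 10.9 CPM in encapsome skin, and these ranges did not overlap. Most of the sum was Foxn1, at 8.85, 8.41 and 9.28 CPM in clodrosome skin, against 7.90, 8.48 and 7.76 CPM in encapsome skin. The groups of Foxn1 overlapped, so the sum says little about the keratin genes of the hair shaft.

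Of 7 skeletal muscle markers 5 were higher, with a summed level of 3951 to 5436 CPM in clodrosome skin and 2804 to 3332 CPM in encapsome skin, and 2 of 4 myoblast markers were higher. Of 4 endothelial markers 3 were higher, with a summed level of 410 to 456 CPM in clodrosome skin and 276 to 337 CPM in encapsome skin. Acta2 among 4 mural markers and Tyrp1 among 5 melanocyte markers were higher, and Adipoq among 5 adipocyte markers was lower. In edgeR, 0 of 4 Schwann cell and 0 of 3 T cell markers were called, with 1 marker of each list at an unadjusted p under 0.05. Over the gene and marker lists together, 61 genes were called, and 36 of them were called in all 10 alternatives. The 61 is a count and not a share, so it cannot be set against the 22.4% of all genes tested that were called. Krt15 of the outer follicle, highest in clodrosome B, lost its call in 6 of the 10. The part of any of these cell types in the Hox differences was not tested.

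**Figure D4:**
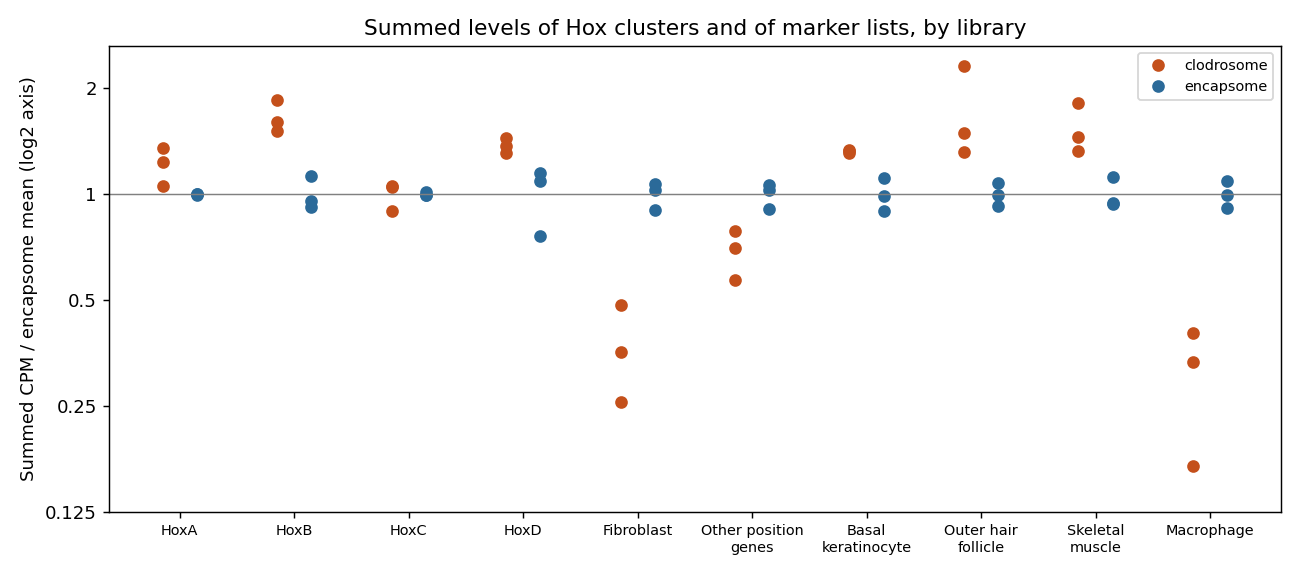
Summed CPM of each Hox cluster, of the other position genes and of 5 marker lists in each library, divided by the encapsome mean of the same list, on a log2 axis. Dots are libraries, clodrosome left and encapsome right. HoxA, HoxB and HoxD lie above the encapsome libraries, while fibroblast and macrophage markers and the other position genes lie below them.

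The libraries differed in a second way that crosses the groups. The share of counts in rRNA genes was lower in clodrosome A, clodrosome C and encapsome A, at 0.267%, 0.238% and 0.405%, than in clodrosome B, encapsome B and encapsome C, at 0.693%, 0.753% and 0.705%. The labels name no batch. Within the 3 libraries of lower share, the log2 difference between clodrosome and encapsome was 0.36 for Hoxa5, 0.56 for Hoxb7, 1.09 for Hoxb9, 0.77 for Hoxc13, 1.32 for Hoxd4, 1.38 for Hoxd9 and 1.89 for Hoxd10. Within the 3 of higher share, it was 1.06 for Hoxa5, 1.05 for Hoxb7, 1.29 for Hoxb9, 0.50 for Hoxc13, 1.48 for Hoxd4, 0.61 for Hoxd9 and 0.69 for Hoxd10. All 14 values were positive, which was fixed in advance, because the groups of these 7 genes did not overlap. Hoxa5, Hoxb7, Hoxb9 and Hoxd4 had the larger value at the higher share, and Hoxc13, Hoxd9 and Hoxd10 at the lower. Each of these values rests on 3 libraries with 1 or 2 per group, so no test was made. With the split as a second term of the edgeR fit, 6 of the 7 Hox calls stayed, and Hoxd4 was lost.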

How the data were processed

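Per the file headers, the deposited raw counts come from featureCounts 1.6.2 with Ensembl 102 gene models on GRCm38. Its command gives only the annotation and the output, so each read end counts singly, strand is ignored and ambiguous reads are left out. The submitters' processing notes name Trimmomatic 0.36, HISAT2 2.2.1, StringTie 2.2.1 and DESeq2 1.34.0 as further tools, and mm10 as the build. Per the labels' protocols, libraries were made with a stranded mRNA kit. Of 55487 identifiers, 55227 (99.5%) had a symbol.

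edgeR 4.0.16 (R 4.3.3) was fitted to the whole table with TMM scaling and a single group term, and its quasi-likelihood test compared the groups. Genes entered through filterByExpr, set to at least 10 counts and a total of 15, which equals a limit of 0.314 CPM. This kept 17988 genes, with 4035 called at an adjusted p under 0.05, 1692 higher and 2343 lower in clodrosome skin. Levels per kilobase are CPM over the exon length in the deposited table. On simulated counts for 17700 genes of this comparison, 56.7% of 1.5-fold, 83.6% of 2-fold and 100% of 4-fold changes were recovered, with 15 false calls. There 67, 67 and 66 genes were changed at these folds, all averaging over 1 CPM. That is far fewer changed genes than were called in the data. Pairs of libraries of 1 group differed beyond counting noise (chi-square of 9.93 to 53.0 per gene), so none was merged. The alternatives were the RLE size factors, no filter on low counts, the rRNA share split as a second term, DESeq2 1.42.0 and leaving out each library.

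The members and all gene lists were chosen with earlier results of these data known, so no set test was made. Named genes were the Hox members, with 1 not reported here, and with values per library for those called and for the highest of each cluster, and from other lists the called genes, at most 6 per list. Hoxc9, Hoxc10, Hoxb6 and Hoxb8, other uncalled genes with values, Shox2, the named cell type markers, the paralog ratios and the within-split values were chosen after the data were seen.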

Additional observations from a re-analysis of the deposited data

How the results depend on the processing

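Without each library in turn, 3 to 7 Hox genes, 2477 to 4396 of all genes and 11 to 23 genes of the cofactor, chromatin, retinoid, position, cluster-interior and neighbour lists were called (7, 4035 and 21 with all 6 libraries), and the Hox median log2 fold change was 0.24 to 0.34. The 3 Hox calls left without encapsome C were Hoxb7, Hoxb9 and Hoxd9. RLE size factors added Hoxb6 (8 calls), no filter added Hoxb6 and Hoxb8 (9 calls), and DESeq2 lost Hoxd4 and added Hoxb6 (7 calls, with 4174 genes or 22.8% called in all). Leaving out encapsome A also added Hoxb6 and Hoxb8, clodrosome C added Hoxa7, and clodrosome A added Hoxc10. No called Hox gene changed direction in any of the 10 alternatives. Leaving out a library could hardly have reversed them, because their groups did not overlap.

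Among genes with small fold changes, the rRNA term turned Hoxc4 to 0.095 and Hoxc6 to -0.068. Leaving out 1 library also turned the sign of 7 genes, whose log2 fold changes then ranged from -0.17 to 0.37 for Hoxa2, -0.17 to 0.34 for Hoxa4, -0.27 to 0.036 for Hoxa9, -0.11 to 0.24 for Hoxa10, -0.041 to 0.27 for Hoxb4, -0.16 to 0.078 for Hoxc4 and -0.057 to 0.25 for Hoxc6. The cause was not tested, beyond the smaller number of libraries. No paired analysis was possible because the numbers in the count columns are not the replicate numbers of the labels. In the simulated counts 1.5-fold changes were recovered in 56.7% of changed genes, all averaging over 1 CPM, which limits what uncalled Hox genes show. Hoxa2, Hoxa4, Hoxb2 and Hoxb5 averaged less than that, so this rate does not cover them.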
